A study of Mus musculus with 65 samples.

Results

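Genes for variants of the core histones were followed across single cells of the embryonic mouse cortex. They were H2afz, H2afv, H2afx and H2afy, which encode variants of histone H2A, and H3f3a and H3f3b, which both encode histone H3.3. The genes were chosen by name, with earlier results of these data known, and all 6 were among the 11971 genes of the count table. The data were read counts per gene in 65 cells from the cortex of C57BL/6J embryos at E13.5. Ganglionic eminences had been removed, the brains of the embryos were pooled, and single cells that excluded the dead-cell dye propidium iodide were sorted for full-length cDNA made from polyA RNA. Every cell carries the same labels, including the cell type neural progenitor cell, although the sort used no marker of a cell type. By a number in their titles the cells belong to 3 sets, with 31, 13 and 21 cells. The labels say nothing about these sets, which are treated as possible batches. No animal is named, so cells are not replicates of animals, and differences between classes of cells are described without a test.

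Canonical histones are made during DNA replication from clustered genes whose messages usually end in a stem-loop and lack a polyA tail. Variant histones replace them in chromatin and are made from single genes with polyadenylated messages, most of them at any time in the cell cycle. H2A.Z, encoded by H2afz and H2afv, is placed around transcription start sites, and H2afz is known in many tissues as a gene of dividing cells. H2A.X, encoded by H2afx, is phosphorylated around DNA breaks, and its gene can give both a replication-linked message and a polyadenylated one. MacroH2A1, encoded by H2afy, carries a large additional domain and is found in silent chromatin such as the inactive X chromosome. H3.3 is deposited outside replication and is the form of H3 that builds up in cells that have stopped dividing, neurons among them.

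The coding sequences show where reads of the paired genes differ although their products are nearly or fully identical. In the mouse annotation the coding sequences of H2afz and H2afv, 384 bases each, differed at 80 bases, were 79.2% identical and gave proteins that differed at 3 of 128 residues. Their first 60 coding bases are shown with the 13 differing bases in capitals.
H2afz: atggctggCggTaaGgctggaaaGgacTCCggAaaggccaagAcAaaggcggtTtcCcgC
H2afv: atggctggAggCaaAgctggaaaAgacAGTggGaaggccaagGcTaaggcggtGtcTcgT
The coding sequences of H3f3a and H3f3b, 408 bases each, differed at 95 bases and were 76.7% identical, and the proteins differed at 0 of 136 residues. Their first 60 coding bases, again with 13 differing bases in capitals, differ mostly at the last base of a codon.
H3f3a: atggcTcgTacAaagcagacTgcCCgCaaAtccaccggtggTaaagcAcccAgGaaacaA
H3f3b: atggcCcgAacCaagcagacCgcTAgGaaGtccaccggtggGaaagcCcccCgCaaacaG
The longest run of identical bases was 14 in the H2A.Z pair and 23 in the H3.3 pair.

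The upstream sequences differed in their number of CCAAT boxes, a short promoter element known from many genes of dividing cells and from histone genes. CCAAT and its reverse complement ATTGG were counted in the 250 bases before the RefSeq start site (build GRCm38.p6, which is not the build of the counts). These strings can overlap at a shared AT, and overlapping pairs numbered 0 in the 5 member promoters. There were 4 in H3f3b, 4 in H2afv, 2 in H2afz, 1 in H3f3a and 0 in H2afy. Among 32851 promoters of the same length, 33.8% held at least 1, 10.1% at least 2 and 0.840% at least 4. H2afz and H3f3b are shown, since they were the members with the larger differences in mean between neurons and progenitors in each direction, with the matches in capitals. They lie at chr3:137864237-137864486 on the plus strand and at chr11:116024505-116024754 on the minus strand.
H2afz: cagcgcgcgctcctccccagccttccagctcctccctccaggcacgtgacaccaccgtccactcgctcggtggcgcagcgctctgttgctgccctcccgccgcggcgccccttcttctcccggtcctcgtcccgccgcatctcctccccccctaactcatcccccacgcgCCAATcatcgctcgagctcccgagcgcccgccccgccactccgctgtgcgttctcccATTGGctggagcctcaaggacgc
H3f3b: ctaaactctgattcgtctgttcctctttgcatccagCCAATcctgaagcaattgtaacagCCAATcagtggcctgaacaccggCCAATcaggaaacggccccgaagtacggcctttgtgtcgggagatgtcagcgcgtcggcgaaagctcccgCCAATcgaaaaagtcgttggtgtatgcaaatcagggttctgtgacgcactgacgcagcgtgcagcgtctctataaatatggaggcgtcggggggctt
All 4 matches in H3f3b read CCAAT on the gene's strand, while those of H2afz face each other as 1 CCAAT and 1 ATTGG. A match is a string of letters in this window and no measure of binding. The promoter of H2afx was not analysed here.

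Levels are given as CPM, that is, counts per 1000000 reads counted in the cell. A cell held between 85338 and 32130629 reads with a median of 14609426, and 3 cells held under 1000000. The median number of genes with a read was 6276. Cells were classed by marker genes other than the 6. A neuron had Neurod6, a gene of excitatory cortical neurons, at 10 CPM or more. A progenitor had Sox2, a transcription factor of neural stem cells, at 10 CPM or more and was no neuron. This gave 16 neurons and 22 progenitors, and 0 cells passed both levels. The levels fell in wide gaps, since cells below them reached at most 1.15 CPM for Neurod6 and 1.21 CPM for Sox2, and cells above them began at 61.8 CPM and 10.9 CPM. The 16 cells with Neurod6 carried the label of neural progenitor cell too. Their median of the neuronal tubulin gene Tubb3 was 5620 CPM, against 265 CPM in progenitors. Of 20 genes listed for apical progenitors, 19 were at least 2-fold lower in mean in neurons, and of 20 listed for neurons, 19 were at least 2-fold higher. Eomes, a gene of intermediate progenitors, also reached 10 CPM in 10 of the 16 neurons and 3 of the 22 progenitors, and its median over neurons was 280 CPM, so the neuron class is not free of it. Of the remaining cells, 7 had Eomes, 8 had at least 3 genes of an interneuron list, and 12 had neither. A cell was called cycling when a share of at least 0.5 of 27 G1/S genes or of 36 G2/M genes reached 10 CPM. By this rule 17 of 22 progenitors and 2 of 16 neurons were cycling. The G2/M gene Top2a reached 10 CPM in 5 of 16 neurons. The neuron class is therefore named by its marker, and some of its cells may be progenitors that still divide.

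Globin transcripts followed the title sets and, with them, the classes. The summed level of 4 erythroid genes had a median of 36.7 CPM in neurons, from 0 to 1090, and of 462 CPM in progenitors, from 0 to 5613, and 4 of 4 were at least 2-fold lower in mean in neurons. Alas2, the red cell enzyme of heme synthesis, reached 10 CPM in 1 of 16 neurons and 2 of 22 progenitors. In title set 1, which held 11 neurons and 9 progenitors, the median sums were 0.843 CPM in neurons and 0.463 CPM in progenitors, so values within that set are given beside the members' results for neurons over progenitors and for the cycle outside neurons. Of the Cajal-Retzius genes, 2 of 3 were at least 2-fold higher in mean in neurons, where the summed level was 0 at the median and 7202 CPM in the highest cell, against 0 and 203 CPM in progenitors.

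Neurons had less of the H2A variant messages in mean and more of the H3.3 messages than progenitors. H2afz had the largest difference of the 6, 2.44-fold lower in neurons, and it alone passed 2-fold. H2afv, H2afy and H2afx were between 1.43-fold and 1.58-fold lower in neurons. For H2afx the log2 ratio was only -0.10 without cells under 1000000 reads. H3f3b was 1.73-fold higher and H3f3a 1.33-fold higher. A difference of 2-fold was common in these cells: of 8377 genes with a mean of 10 CPM or more, 23.2% were at least 2-fold higher in neurons, 31.3% at least 2-fold lower and 54.4% past 2-fold either way. Passing it is therefore not particular to H2afz. The median log2 ratio of all these genes was -0.19.

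**Figure D1:**
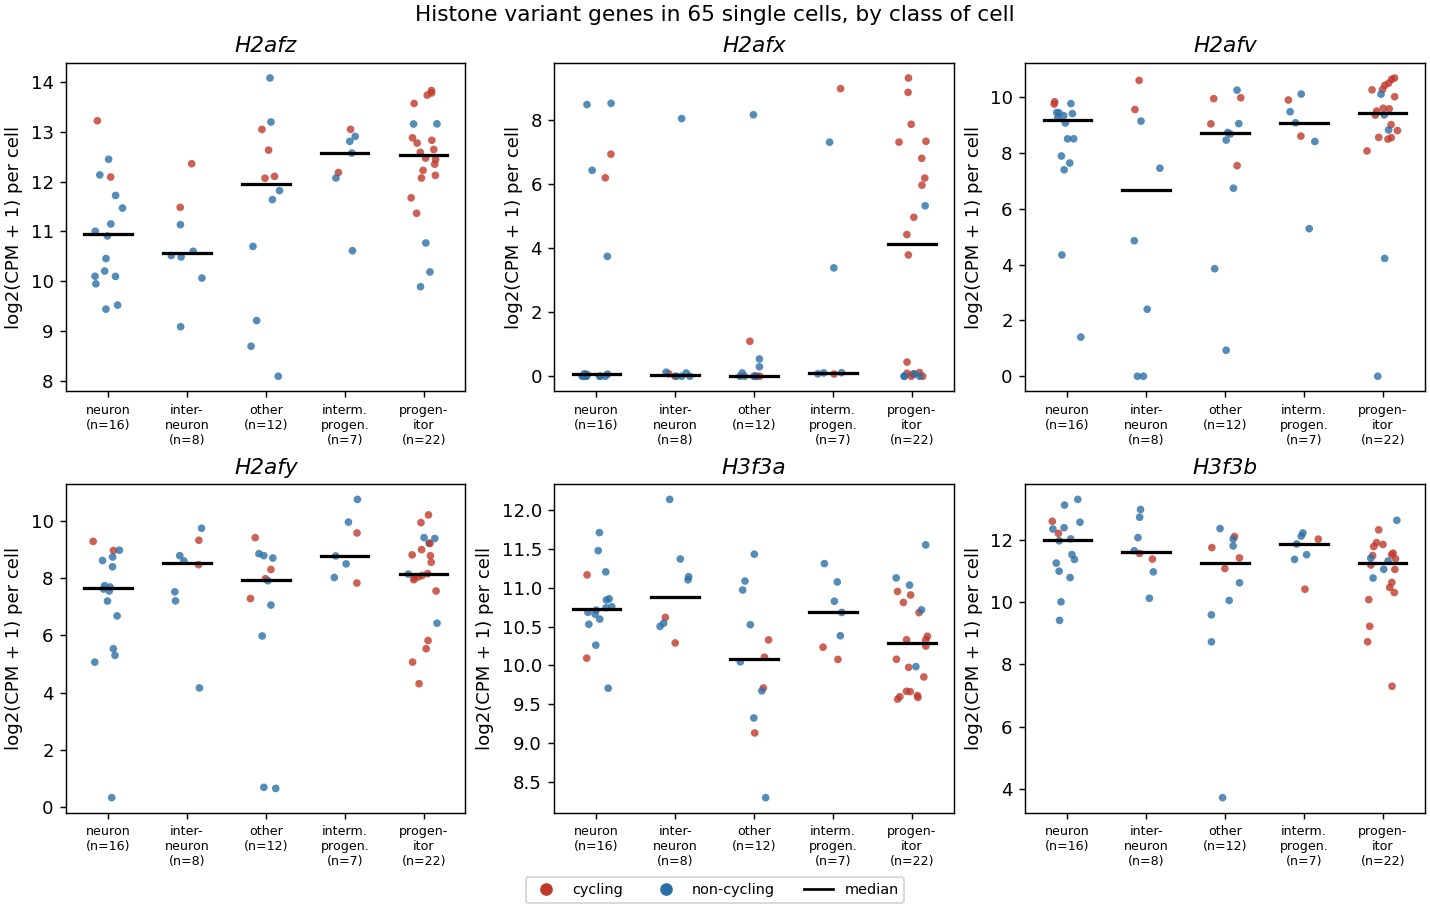
Level of each histone variant gene in every cell as log2(CPM + 1), by class of cell, with cycling cells in red, non-cycling cells in blue and the class median as a black line. Neurons (left) sit low for H2afz and high for H3f3a and H3f3b beside progenitors (right), the classes overlap in all 6 genes, and H2afx is at or near 0 in most cells.

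H2afz ran from 695 to 9522 CPM in neurons with a median of 1986, and from 949 to 14486 CPM in progenitors with a median of 5902. The ranges overlapped, but 15 of 16 neurons lay below the progenitor median. The mean was 2724 ± 2343 CPM in neurons (SD, n = 16 cells) and 6657 ± 4022 CPM in progenitors (SD, n = 22 cells), a log2 ratio of -1.29. The 2 cycling neurons, at 4357 and 9522 CPM, were above the neuron median, and the higher was the highest neuron of all. Without these cells the log2 ratio was -1.65. In title set 1 alone it was -1.10, in set 2 -0.22 and in set 3 -1.91, so the direction was the same in each set. The size was not, and in set 2, with 2 neurons and 6 progenitors, the median log2 ratio of all genes was itself -1.01.

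H2afv, the second H2A.Z gene, ran from 1.64 to 912 CPM in neurons with a median of 573, and from 0 to 1646 CPM in progenitors with a median of 690. The ranges overlapped over most of their length, and 11 of 16 neurons lay below the progenitor median. The mean was 491 ± 302 CPM in neurons and 775 ± 491 CPM in progenitors, a log2 ratio of -0.66. It was -0.72, -1.20 and -0.51 within title sets 1, 2 and 3.

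H2afx was at or near 0 in most of these cells and at 10 CPM or more in others. It reached 10 CPM in 22 of 65 cells, or 33.8%. The 95% Clopper-Pearson interval of 22.6 to 46.6% treats cells as independent draws and does not cover differences between animals or title sets. The median among the cells at 10 CPM or more was 140 CPM with a highest of 637 CPM. H2afx was at 0 in 23 cells, and whether those cells lack the message was not tested. In neurons it ran from 0 to 368 CPM with a median of 0.0438, and in progenitors from 0 to 637 CPM with a median of 16.7. Most neurons were thus near 0, and progenitors were split between near 0 and clearly above the 10 CPM level. The share of cells at 10 CPM or more was 6 of 16 neurons and 12 of 22 progenitors, and all 6 neurons came from title set 1. The mean was 63.6 ± 122.8 CPM in neurons and 91.1 ± 165 CPM in progenitors, a log2 ratio of -0.51. The difference in mean was less than the SD of either class. The highest progenitor, at 637 CPM, held 982580 reads. Without cells under 1000000 reads the log2 ratio was -0.10, and after thinning to 1390849 reads per cell it was -0.03. The median of all genes was -0.19 in both settings. In title set 1 the log2 ratio was -0.92. In sets 2 and 3 the 5 neurons had at most a trace, and the ratio then depends on the added pseudocount of 1 CPM. The table also holds 9 genes whose transcripts match the H2afx coding sequence at 90% identity or more over at least 100 bases, among them the H2A gene H2afj with a mean of 47.1 CPM, so that some H2afx reads could have been assigned among them.

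H2afy ran from 0.256 to 620 CPM in neurons with a median of 200.05, and from 18.8 to 1179 CPM in progenitors with a median of 282. The ranges overlapped, with 10 of 16 neurons below the progenitor median. The mean was 246 ± 193 CPM in neurons and 385 ± 305 CPM in progenitors, a log2 ratio of -0.65, and it was -0.41, -0.70 and -1.73 within title sets 1, 2 and 3.

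H3f3a ran from 835 to 3349 CPM in neurons with a median of 1693, and from 757 to 3000 CPM in progenitors with a median of 1251. Both classes covered nearly the same range, but 13 of 16 neurons lay above the progenitor median. The mean was 1819 ± 637 CPM in neurons and 1372 ± 602 CPM in progenitors, a log2 ratio of 0.41. It was 0.57, 0.29 and 0.59 within title sets 1, 2 and 3. Cell to cell spread was narrow for this gene, with a coefficient of variation of 35.004% in neurons and 43.9% in progenitors.

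H3f3b ran from 684 to 10208 CPM in neurons with a median of 4137, and from 156 to 6398 CPM in progenitors with a median of 2465. The ranges overlapped, and 11 of 16 neurons lay above the progenitor median. The mean was 4312 ± 2701 CPM in neurons and 2487 ± 1503 CPM in progenitors, a log2 ratio of 0.79. It was 0.85 in title set 1 and 0.50 in set 3, but -1.14 in set 2. The 2 neurons of set 2 had a mean of 860 CPM and its 6 progenitors of 1902 CPM, and their medians, 860 and 844 CPM, lay close together.

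**Figure D2:**
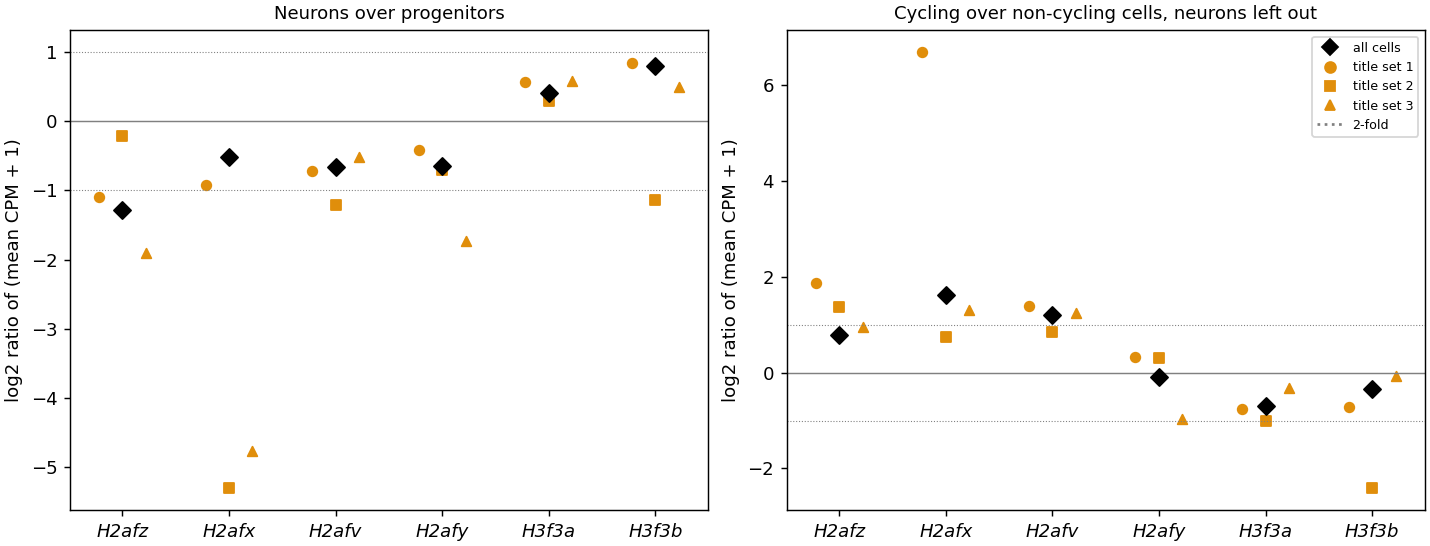
Log2 ratio of mean CPM (plus 1) for the 6 genes in neurons over progenitors (left) and in cycling over non-cycling cells outside the neuron class (right), over all cells (diamonds) and within each title set (orange), with 2-fold marked by dotted lines. H2afz is below 0 on the left and above 0 on the right in every set, H3f3a is the reverse, and H3f3b changes sign in set 2 on the left.

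Over all 5 classes the H2A.Z genes and the H3.3 genes had different orders of levels. The median of H2afz was 6077 CPM in intermediate progenitors, 5902 in progenitors, 3947 in the cells with no class marker, 1986 in neurons and 1508 CPM in interneuron-type cells. The first 2 classes did not differ beyond the spread of cells, and nor did the last 2. H2afv was highest in progenitors at 690 CPM and lowest in interneuron-type cells at 101 CPM, where single cells ran from 0 to 1549 CPM. H2afy was highest in intermediate progenitors, with a median of 436 CPM and cells from 226 to 1717 CPM, against 282 CPM in progenitors. The mean of H2afy there was 678 ± 536 CPM (SD, n = 7 cells), 1.76-fold that of progenitors, where 19.8% of genes were at least 2-fold higher in intermediate progenitors and 40.5% at least 2-fold lower. In that comparison 0 of 6 members passed 2-fold, where 60.2% of genes did. Title set 1 held only 2 of the 7 intermediate progenitors, so no value within it is given, and the median erythroid sum was 966 CPM in intermediate progenitors and 462 CPM in progenitors. H3f3a had medians of 1884 CPM in interneuron-type cells, 1693 in neurons, 1642 in intermediate progenitors, 1251 in progenitors and 1079 in the remainder. H3f3b had medians of 4137 CPM in neurons, 3771 in intermediate progenitors, 3146 in interneuron-type cells, 2470 in the remainder and 2465 in progenitors. Neighbours in both orders overlapped over most of their range. Between the 8 interneuron-type cells and the 16 neurons, 0 of 6 members differed in mean by 2-fold, where 58.4% of genes did.

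In cycling cells the H2A.Z genes and H2afx were higher in mean and the H3.3 genes lower. Outside the neuron class there were 25 cycling and 24 non-cycling cells. H2afz ran from 2633 to 14486 CPM in cycling cells with a median of 5665, and from 273 to 17243 CPM in non-cycling cells with a median of 1703. All 25 cycling cells lay above the non-cycling median, and the lowest cycling cell was above most non-cycling ones, although the highest cell of all was a non-cycling one. The mean was 6761 ± 3404 CPM in cycling cells and 3895 ± 4167 CPM in non-cycling cells, a log2 ratio of 0.80, with 1.87, 1.37 and 0.96 in title sets 1, 2 and 3. The pooled ratio was below that of each set. Of the cycling cells 15 of 25 came from set 1 and of the non-cycling cells 12 of 24 from set 3, and over all cells of a set the median of H2afz was 7662 CPM in set 3, 2633 in set 2 and 4287 CPM in set 1.

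H2afv ran from 186 to 1646 CPM in cycling cells with a median of 766, and from 0 to 1218 CPM in non-cycling cells with a median of 345. Nearly all cycling cells, 23 of 25, lay above the non-cycling median. The mean was 846 ± 448 CPM in cycling cells and 366 ± 382 CPM in non-cycling cells, a log2 ratio of 1.21, and 1.39, 0.85 and 1.25 within the title sets. With H2afx, at a log2 ratio of 1.61, this made 2 of 6 members at least 2-fold higher in cycling cells, against 26.1% of all genes, while 0 of 6 were at least 2-fold lower, against 24.1%. Either way 50.2% of genes passed 2-fold. The median log2 ratio of all genes was -0.00.

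H2afx reached 10 CPM in 12 of 25 cycling cells and in 4 of 24 non-cycling cells outside the neuron class. With neurons included it did so in 14 of 27 cycling cells, or 51.9%, and in 8 of 38 non-cycling cells, or 21.1%. By title set these were 8 of 17 cycling and 4 of 14 non-cycling cells in set 1, 2 of 4 and 2 of 9 in set 2, and 4 of 6 and 2 of 15 in set 3. The share was higher among cycling cells in each set. After each cell was thinned to 1390849 reads, which left 62 cells, the counts were 13 of 26 cycling and 8 of 36 non-cycling cells. Among the 25 cycling cells outside the neuron class, H2afx passed 10 CPM in 4 of 6 that met only the G2/M rule, 5 of 7 that met both and 3 of 12 that met only the G1/S rule. Title set 1 held 2 of these 6 cells, 6 of the 7 and 7 of the 12, so phase and title set cannot be told apart in these counts. Both cycling neurons had H2afx, at 72.5 and 122 CPM.

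H3f3a was lower in cycling cells, with values from 560 to 1980 CPM and a median of 1101, against 314 to 4504 CPM and a median of 1911 in non-cycling cells. Of the cycling cells, 23 of 25 lay below the non-cycling median. The mean was 1162 ± 385 CPM in cycling cells and 1887 ± 884 CPM in non-cycling cells, a log2 ratio of -0.70, and -0.76, -1.02 and -0.33 within the title sets. H3f3b ran from 156 to 5173 CPM in cycling cells with a median of 2710, and from 12.1 to 8140 CPM in non-cycling cells with a median of 2858. The classes lay over each other, and the log2 ratio of the means, -0.34, was -0.72, -2.41 and -0.06 within the sets. H2afy had medians of 284 CPM in cycling cells and 373 CPM in non-cycling cells. Its log2 ratio of -0.10 was 0.32 and 0.31 in title sets 1 and 2 and -0.96 in set 3, so that no common direction was seen.

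H2afz was found at high levels in all phases that the lists could tell apart. Its median was 5225 CPM in the 12 cells that met only the G1/S rule, 6390 CPM in the 7 that met both and 9868 CPM in the 6 that met only the G2/M rule, which ran from 2633 to 14486 CPM. Of these 6 cells, 3 came from title set 3, so phase and title set cannot be told apart in this order. H3f3a had medians of 1227, 1081 and 908 CPM in the same order of phases. Its means were 1221, 1248 and 943 CPM and the ranges overlapped, so no order beyond the spread of cells was seen. H2afv had medians of 764, 766 and 715 CPM, with no order beyond the spread of cells.

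Within the progenitor class alone, 17 cells were cycling and 5 were not, and those 5 came from title sets 2 and 3 only. H2afz was at 949 and 1165 CPM in the non-cycling cells of set 2 and at 1744, 9101 and 9123 CPM in those of set 3, while the cycling progenitors ran from 2633 to 14486 CPM with a median of 6139. Of the non-cycling cells 3 were therefore below every cycling progenitor and the others were within their range. The log2 ratio was 0.73, which is below the 0.84 median of all genes in this comparison, where 48.2% of genes were at least 2-fold higher in cycling progenitors and 19.2% at least 2-fold lower. H3f3a was at 2096 and 3000 CPM in the non-cycling progenitors of set 2 and at 1012, 1681 and 2236 CPM in those of set 3, against 757 to 1980 CPM with a median of 1081 in cycling progenitors. All 17 cycling progenitors lay below the non-cycling median, at a log2 ratio of -0.76. The set 2 cell at 949 CPM of H2afz and 3000 CPM of H3f3a held 85338 reads, the fewest of all cells. Only 81 of them were H2afz reads. Without cells under 1000000 reads, which left 16 and 4 cells, the log2 ratio was 0.49 for H2afz and -0.55 for H3f3a. H2afx was at 0 or a trace in 4 of the 5 non-cycling progenitors and at 39.1 CPM in the fifth, and reached 10 CPM in 11 of 17 cycling ones. It was the 1 of 6 members that passed 2-fold, where 67.4% of genes did, with a log2 ratio of 3.72. H2afv was just below 2-fold at 0.97, but at 0.005 with classes set at 50 CPM, which gave 12 and 6 cells.

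Set against the 5 non-cycling progenitors only, H2afv and H3f3a had pooled ratios near 0. H2afy and H2afz were lower in pooled mean in neurons. Title set 1 held 11 of the 16 neurons and 0 of these 5 progenitors, so class and title set cannot be told apart in the pooled values. The median log2 ratio of all genes in this comparison was 0.65. H2afz had a median of 1986 CPM in neurons and 1744 CPM in non-cycling progenitors, and the log2 ratio of the means was -0.70. Of all genes 27.6% had a ratio below it, against 26.5% in neurons over all progenitors, so its place among genes was similar by means. The log2 ratio of H2afz was -0.08 under median-of-ratios scaling, where the median of all genes was 1.08, and 0.19 by class medians. Over all progenitors the same settings gave -0.87 and -1.57. Against non-cycling progenitors the ratio was 1.35 without title set 3, whose 2 high cells carry the progenitor mean. Within title sets 2 and 3 the ratio of H2afz was 1.57 and -1.24, so it had no common direction there. H3f3a had medians of 1693 CPM in neurons and 2096 CPM in non-cycling progenitors, at a log2 ratio of -0.14, and 0.18 under median-of-ratios scaling. H2afv had a log2 ratio of 0.14 and H3f3b of 0.46, with H3f3b at -2.41 within title set 2. H2afy had a median of 200.05 CPM in neurons and 594 CPM in non-cycling progenitors, a log2 ratio of -0.91, with 15 of 16 neurons below the non-cycling median. Of the 6 members 1 passed 2-fold, H2afx at a log2 ratio of 2.87, against 69.6% of all genes, and this value was -3.10 without title set 1. Within title sets 2 and 3 H2afy was lower in mean in neurons in each. The small number of cells on the second side and the uneven title sets limit all of these values.

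Along continuous scores H2afz and H3f3a stood at opposite ends. For each cycle list the score was the mean log2(CPM + 1) of its genes minus that of all genes with a mean of 10 CPM or more, and the third was the same for the neuron list minus the apical progenitor list. Over 65 cells, H2afz had a Spearman rho of 0.56 with the G1/S score, 0.60 with the G2/M score and -0.60 with the neuronal minus progenitor score (Pearson r 0.50, 0.52 and -0.62). H3f3a had rho of -0.48, -0.40 and 0.54 with these scores (r -0.41, -0.40 and 0.53). For the neuronal minus progenitor score, 0.239% of genes had a rho below that of H2afz and 99.2% below that of H3f3a, and the median rho of all genes was -0.05. The signs of both held within each title set: for H2afz -0.72, -0.43 and -0.64, and for H3f3a 0.60, 0.36 and 0.50. Outside the neuron class, over 49 cells, the values were -0.56 for H2afz and 0.61 for H3f3a.

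**Figure D3:**
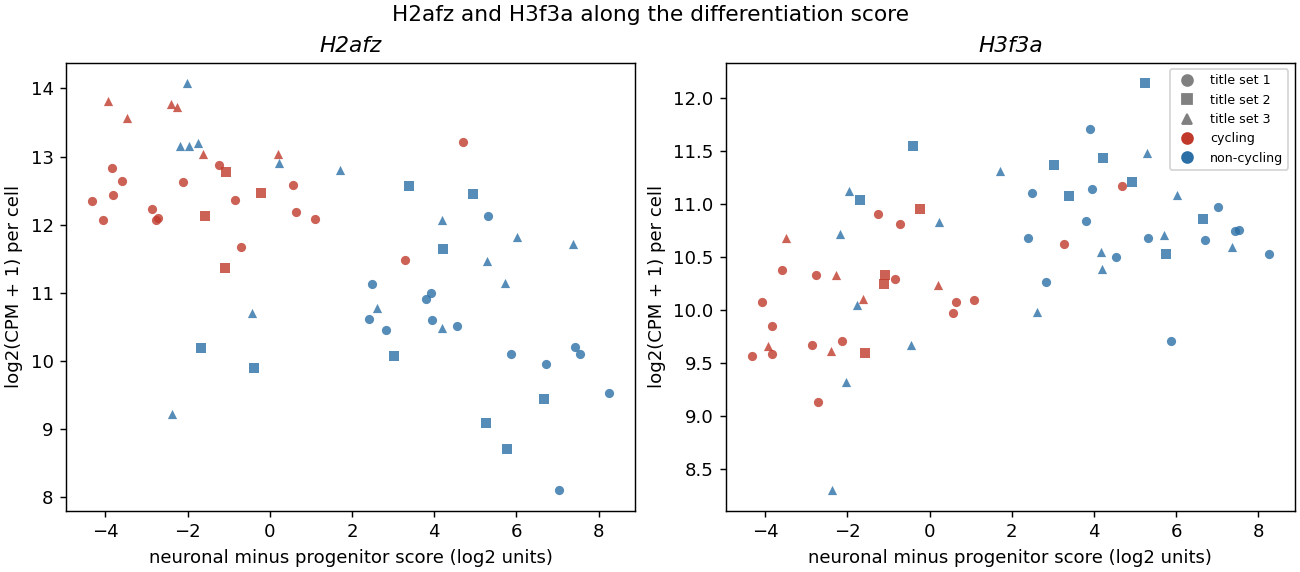
Level of H2afz (left) and H3f3a (right) in each of 65 cells, as log2(CPM + 1), against the neuronal minus progenitor score, with cycling cells in red, non-cycling cells in blue and the title set as the shape of the point. H2afz goes down along the score (rho -0.60) and H3f3a goes up (rho 0.54), and the cycling cells lie mostly at the left of both plots.

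H2afv had rho of 0.41, 0.40 and -0.35 with the 3 scores, and H2afx of 0.23, 0.26 and -0.23. H2afy had 0.30, 0.13 and -0.20, and H3f3b had -0.22, -0.03 and 0.24. These weaker values in sparse single-cell counts are given as descriptions only. All cells share depth, composition and title sets, and the scores overlap, since the G1/S score had a rho of -0.77 with the neuronal minus progenitor score. H2afz itself had a rho of 0.53 with the reads of the cell and H3f3a of -0.36, and within title sets 1, 2 and 3 these were 0.39, 0.45 and 0.51 for H2afz and -0.35, -0.39 and -0.02 for H3f3a. The part of depth in these relations was not tested.

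Within each pair of genes for nearly or fully identical proteins, the share of reads can be compared between cells without regard to library scaling. H2afz took a median of 82.5% of the H2afz and H2afv reads in neurons, from 61.1% to nearly all, and 87.8% in progenitors, from 51.4% to all. The spans of the classes overlapped almost fully. Within title sets 1 and 3 the medians were lower in neurons, at 82.3 and 80.4%, against 86.0 and 93.3% in progenitors, and in set 2 they were 93.2% in neurons and 83.2% in progenitors. H3f3b took a median of 68.5% of the H3f3a and H3f3b reads in neurons, from 26.9 to 88.0%, and 67.0% in progenitors, from 16.8 to 80.0%. This balance of the H3.3 genes followed the title set far more than the class, with medians of 74.99% in set 1, 31.01% in set 2 and 65.9% in set 3 over all cells. Although the pooled median was 1.51 percentage points higher in neurons, it was lower in neurons within each set, with differences of -0.40, -4.90 and -5.69 points in sets 1, 2 and 3. Those differences lay within the spread of cells. In set 1 no cell was under 54.3%, and in set 2 the medians were 28.7% in neurons and 33.6% in progenitors. H3f3b alone had medians of 3731, 1088 and 2179 CPM in sets 1, 2 and 3, and H3f3a of 1450, 2096 and 1334 CPM. The cause of the difference between sets was not tested.

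**Figure D4:**
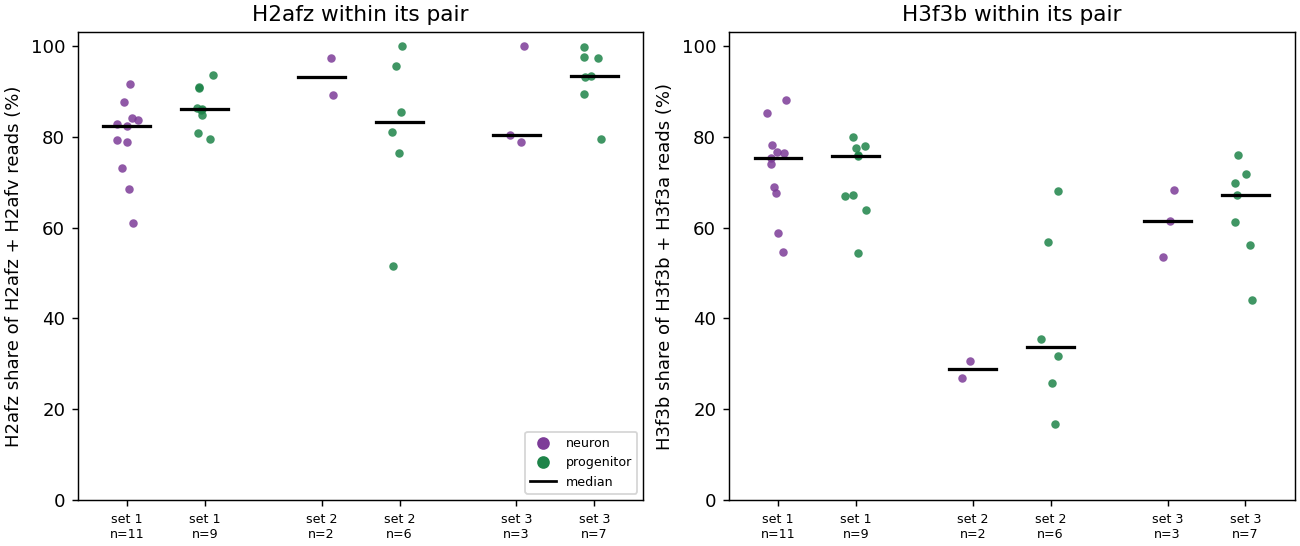
Share of H2afz among H2afz and H2afv reads (left) and of H3f3b among H3f3b and H3f3a reads (right) in percent, per cell, for neurons and progenitors of each title set, with medians as black lines. The H3f3b share is lower in set 2, with medians of 28.7% in neurons and 33.6% in progenitors, than in sets 1 and 3, where all medians lie above 60%.

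The members varied together only in part. H3f3a and H3f3b had a rho of 0.28 over all cells and of 0.34, 0.83 and 0.66 within title sets 1, 2 and 3. H2afz and H2afv had 0.33, and 0.58, 0.80 and 0.08 within the sets. H2afz and H3f3a had -0.27, with a negative value in each set. These figures share the depth and composition of the cells.

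The genes most like H2afz across the 65 cells, among those with 1 sign in every title set, were Hmgb1 with a rho of 0.78, Prdx1 with 0.72, Hmgb1-rs17 with 0.71, Hmgb2 with 0.69 and Snrpd1 with 0.67. Hmgb1 and Hmgb2 encode abundant DNA-bending chromatin proteins, and Prdx1 a peroxide-removing enzyme. The most opposite were Tuba1a, a tubulin gene of young neurons, at -0.61 and Runx1t1 at -0.61. For H3f3a they were Gm12657 with a rho of 0.73, Igfbpl1 with 0.59, Nrep with 0.56, Map2, a microtubule protein of neurons, with 0.55 and Tuba1a with 0.51, and at the other end Actn1 and Psat1 at -0.55 each. Gm12657 is annotated as a processed pseudogene that is 98.5% identical to the H3f3a coding sequence over 408 bases, so that the 2 rows can share reads. At a mean of 16.5 CPM it was small beside H3f3a. For H3f3b the nearest were Clvs1 and Smarcb1 with 0.52 each, Cep170 with 0.51, Robo1 with 0.46 and Nrep with 0.46, so that Nrep was near both H3.3 genes. H2afv was nearest to 2700094K13Rik with 0.56, and H2afx and H2afy had no gene above 0.50 and 0.44.

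Further near copies touch the counts of some members. An annotated transcript of Tmcc1 contains a copy identical at every base to the H2afz coding sequence of 384 bases. Tmcc1 had a mean of 101 CPM with a median of 0.0383, and its rho with H2afz was -0.19. For H2afv, H2afy and H3f3b, 0 other genes of the table matched at 90% identity over 100 bases. In the whole annotation, which includes genes outside the table, the matches numbered 45 for H2afx, 39 for H3f3a and 6 for H2afz. There were 3 for H3f3b, 1 for H2afy and 0 for H2afv. Whether reads shared with such copies were counted or dropped is not stated in the sources. The libraries did not keep the strand, so reads of a gene that overlaps a member on the other strand would be counted with it or be left out.

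Many but not all genes that supply and deposit histones during replication were lower in mean in neurons. Of 12 such genes with a mean of 10 CPM or more, 7 were at least 2-fold lower in mean in neurons and 1 at least 2-fold higher, against 31.3% and 23.2% of all genes, with a median log2 ratio of -1.40, against -0.19 for all genes. Chaf1a, a subunit of the assembly factor that follows the replication fork, had a mean of 0.0231 ± 0.0474 CPM in neurons and 70.5 ± 204 CPM in progenitors. Asf1b had 19.7 ± 54.8 CPM in neurons and 196 ± 274 CPM in progenitors, and Nasp, a chaperone of the soluble H3 and H4 pool, had 260 ± 301 CPM in neurons and 745 ± 758 CPM in progenitors. Their spread over cells was as large as their means. Within title set 1 their log2 ratios were -5.64, -3.10 and -1.77. Named after their values were seen, Rbbp4, at a log2 ratio of -0.00, Npat, at 0.43, and Lsm10, at 1.07, did not have that direction. Among 13 canonical and other histone genes with a mean of 10 CPM or more, of 35 listed, 7 were at least 2-fold lower in neurons and 3 at least 2-fold higher, against the same 31.3% and 23.2% of all genes. The linker histone gene Hist1h1b had 11.3 ± 45.001 CPM in neurons and 104 ± 136 CPM in progenitors, and the H4 gene Hist1h4d 25.3 ± 64.4 CPM in neurons and 124 ± 166 CPM in progenitors. Hist3h2a, an H2A gene outside the large cluster, went the other way with 184 ± 192 CPM in neurons and 24.8 ± 70.7 CPM in progenitors, and was at 10 CPM or more in 12 neurons of 16. Within title set 1 the log2 ratios were -3.13 for Hist1h1b, -2.48 for Hist1h4d and 7.18 for Hist3h2a. Messages without a polyA tail would not be measured here.

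The 8 genes of the H3.3 chaperones were mixed. At least 2-fold higher in neurons were 0 of 8, against 23.2% of all genes, and at least 2-fold lower were 4 of 8, against 31.3%, with a median log2 ratio of -0.98. Dek had 69.1 ± 113 CPM in neurons and 161 ± 169 CPM in progenitors, and Daxx, the partner of Atrx in depositing H3.3, 3.91 ± 14.9 CPM in neurons and 32.9 ± 106 CPM in progenitors. Atrx had 290 ± 308 CPM in neurons and 491 ± 468 CPM in progenitors, a log2 ratio of -0.76. Named after their values were seen, Hira, at 0.45, and Cabin1, at 0.72, had the direction of the H3.3 genes. Within title set 1 the values were 0.84 for Hira and 0.58 for Cabin1. Ubn2, at -0.65 over all cells, was at 1.42 there, and Asf1a, at -1.21 over all cells, was at 0.00. Ubn1 had the largest difference of the list, at -3.79 over all cells and -1.56 within set 1. Daxx, Dek and Atrx were at -3.51, -1.35 and -0.85 within set 1. Of 11 genes of the complexes that exchange H2A.Z, 1 was at least 2-fold higher in neurons and 1 at least 2-fold lower, against 23.2% and 31.3% of all genes, with a median of 0.17. These were Dmap1, at a log2 ratio of 1.97, and the acetyltransferase gene Kat5, at -4.35, each at 10 CPM or more in few cells. Vps72, a subunit that binds H2A.Z, had 109 ± 136 CPM in neurons and 83.9 ± 108 CPM in progenitors.

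Among 13 genes of the phosphorylation of and response to H2A.X, 5 were at least 2-fold lower in neurons and 4 at least 2-fold higher, shares near the 31.3% and 23.2% of all genes. Mre11a, Rad50 and Nbn, whose products form the complex that senses DNA breaks, had means of 0.00801, 0.260 and 0.00308 CPM in neurons and of 46.1 ± 129, 48.7 ± 102.9 and 36.4 ± 118 CPM in progenitors. They reached 10 CPM in 0 of 16 neurons each and in 5, 8 and 2 of 22 progenitors, so that a few progenitors carry their means. The 4 higher in neurons were named after their values were seen. They were Trp53bp1 at a log2 ratio of 1.21, Mdc1 at 1.42, Prkdc at 1.36 and Eya2 at 4.97. Trp53bp1 reached 10 CPM in 12 of 16 neurons and 10 of 22 progenitors. Mdc1, Prkdc and Eya2 reached it in 2, 3 and 2 neurons and in 5, 2 and 0 progenitors. A few neurons therefore carry the means of Mdc1, Prkdc and Eya2. Among 9 general histone chaperones 0 passed 2-fold, where 54.4% of all genes did, but the abundant ones had the direction of H2afz, with log2 ratios of -0.86 for Npm1, -0.83 for Set and -0.61 for Hmgn2. Of 5 partners of macroH2A, 2 were at least 2-fold higher in neurons, against 23.2% of all genes. They were Hdac2, a deacetylase gene with 396 ± 471 CPM in neurons and 174 ± 228 CPM in progenitors, and Chd4, a remodeller gene with 280 ± 335 CPM in neurons and 113 ± 152 CPM in progenitors, and both had the opposite direction to H2afy. Bptf was at a log2 ratio of 0.41, while Parp1, at -0.69, and Hdac1, at -0.21, had the direction of H2afy.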

How the data were processed

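The authors deposited raw counts, whole numbers of reads for each gene in each cell. Per the submitters' processing notes the tools were TopHat2 and HTSeq and the build mm9, and versions, roles and the gene annotation are not given in the sources. The libraries had no molecular identifiers and, per the labels' protocols, came from a SMARTer kit. CPM were computed here from each cell's total. Classes of cells used 1 marker gene each or fixed lists at 10 CPM. Comparisons are log2 of (mean CPM + 1) over (mean CPM + 1), computed for all 8377 genes of mean CPM 10 or more, and a gene is called at 2-fold. Cells of pooled embryos are not replicates, so no p-value was made, and SDs are over cells. The steps were tested on simulated data. Alternatives were another scaling (median-of-ratios over 314 genes with reads in every cell), other class levels, pseudocounts and summaries, thinning, and the title sets alone or left out. The members and lists were chosen with earlier results of these data known. From each list of related genes up to 5 with the largest ratio could be named, and for each member the 5 most and 2 least alike. Coding sequences come from GENCODE mouse M21 and were compared with BLAST 2.17.0, and promoters from RefSeq, which matched 5 of 6 members. Python 3.11.15 with numpy 2.4.6, pandas 2.3.3 and scipy 1.17.1 was used. No 2 cells held identical counts.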

Additional observations from a re-analysis of the deposited data

How the results depend on the processing

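For neurons over progenitors, H2afz (log2 ratio -1.91 to -0.22), H2afv (-1.20 to -0.27), H2afy (-1.73 to -0.27), H2afx (-5.30 to -0.03) and H3f3a (0.29 to 0.85) had 1 direction in all 16 alternatives, and H3f3b in 15 of 16, with -1.14 within title set 2. The class level of 2 CPM chose the same 16 and 22 cells and repeated the main values, so 1 of the 16 could not differ. Leaving out the cycling neurons, another of the 16, was chosen after seeing the data. Median-of-ratios scaling moved the median of all genes to 0.13, H2afz to -0.87 and H3f3b to 1.17. H2afx was -4.08 by class medians, -5.03 without title set 1, -5.30 within set 2 and -4.77 within set 3. It was -0.10 without cells under 1000000 reads and -0.03 after thinning. By class medians the genes past 2-fold numbered 2249, against 4561 by means, and 2494 against 5647 for cycling over non-cycling progenitors and 2503 against 5834 for neurons over non-cycling progenitors. For cycling over non-cycling progenitors, H2afz was 1.82 by medians, 2.35 without set 3, 2.22 within set 2 and 1.87 for all cells outside neurons of set 1. H2afv was 3.05 by the mean of log2 values but 0.005 at a class level of 50 CPM, with 12 and 6 cells. H2afx was 7.08 without set 2. H3f3b was -3.01 within set 2 and -2.41 there over all cells outside neurons. It was 0.39 without set 2, 0.35 within set 3 and -0.03 without cells under 1000000 reads, against -0.44 over all progenitors. For neurons over non-cycling progenitors, H2afx turned to -3.10 without set 1 and -4.36 within set 2, and was 6.18 without set 2. H2afz was 1.35 without set 3 and 1.57 within set 2, and H3f3b -2.41 within set 2. The H2afz share was 9.99 percentage points higher in neurons within set 2. The causes were not tested. The contrast outside neurons, its values by set and the neurons without cycling cells were chosen after seeing the data. No paired analysis was possible because all cells form 1 group and no animal is named. Precision was limited by the number of cells, with 5 non-cycling progenitors and 2 neurons in set 2. Of those 5 progenitors, 1 held under 1000000 reads.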
